A study of Sus scrofa with 14 samples.

Results

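Transcripts of 8 adipokines and factors secreted by adipocytes, LEP, ADIPOQ, CFD, RBP4, NAMPT, RARRES2, APLN and RETN, were followed across 7 RNA-seq libraries of pig fat, and the chromatin compartment at their loci was followed across 7 Hi-C libraries. The genes were taken by the symbol of their Ensembl identifier, and all 8 were found among the 21280 genes of the expression tables. RNA-seq and Hi-C each covered 2 wild boar GOM, 2 Bama pig GOM, 2 wild boar ULB and 1 Bama pig ULB library, where GOM is the greater omentum, a visceral depot, and ULB is the upper layer of backfat, a subcutaneous depot. The animals were healthy females of 2 years, 4 in all and 2 of each breed according to the methods. The wild boars were captive animals of wild origin, and the Bama pig line was not a long-inbred one. Both breeds lived on the same farm under the same feeding, in single pens, and were sampled after a fast, so fasting is shared by all groups. The labels give no transgene or treatment. RNA was extracted from the tissue samples, whereas the methods describe Hi-C on nuclei from the adipocyte-bearing top fraction of spun, cross-linked tissue, so the mix of cells may differ between the assays. According to the methods, 1 more Bama pig ULB library of each kind came from an earlier study, which has accessions of its own and was not analysed here.

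Adipokines are proteins that fat tissue releases into the circulation or its surroundings. LEP (leptin) reports fat stores to the hypothalamus and restrains appetite, whereas ADIPOQ (adiponectin) sensitizes liver and muscle to insulin and often falls as fat mass grows. CFD (adipsin) is the serine protease that starts the alternative complement pathway, RARRES2 (chemerin) attracts immune cells and acts on adipocytes through CMKLR1, and RBP4 carries retinol out of the liver but is also made by adipocytes. NAMPT makes the NAD precursor nicotinamide mononucleotide inside cells and is also released as visfatin, APLN (apelin) is the peptide ligand of APLNR, and RETN (resistin) is an adipocyte product in rodents and chiefly a product of blood cells of the myeloid line in humans.

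Transcript levels are given as TPM (kallisto's transcript abundance, scaled to gene length and to the library total), and tests were run on rounded estimated counts with edgeR's quasi-likelihood test. A gene was called when its adjusted p (Benjamini-Hochberg over all genes tested) was below 0.05 and its absolute log2 fold change was above 1. The libraries held between 10833153 and 18627076 estimated counts. Of the 9 adipocyte genes of a 10-gene list that the table holds, all were above 0 in every library, and their summed level lay between 8686.3 and 15225.6 TPM, so adipocyte transcripts were present in all 7. One muscle-marked library stood apart: 4 skeletal muscle genes summed to 360.4 TPM in wild boar ULB 1 and to between 2.7 and 9.5 TPM in the other 6 libraries. Genes that mark liver, 13 in the table, summed to between 305.9 and 1604.2 TPM in the 3 Bama pig libraries and to between 173.5 and 220.7 TPM in the 4 wild boar libraries. APOA1, an apolipoprotein, held 162.98 to 206.05 TPM of this in wild boar and 146.24 to 226.60 TPM in Bama pig, and without it, a choice made after its values were seen, the sums were 159.6 to 1377.6 TPM in Bama pig and 7.9 to 15.5 TPM in wild boar. Replicates are separate samples by label. Since the 7 libraries come from 4 pigs, the depots share animals, but the labels do not say which animal gave which library. The tests treat the libraries as independent, and their p-values measure the spread between these samples.

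RARRES2 (ENSSSCG00000035419, chr18:55903693-55906976, minus strand, Sscrofa11.1) and RBP4 (ENSSSCG00000010479, chr14:105037360-105044552, minus strand) were the 2 members higher in GOM by the test, and LEP (ENSSSCG00000040464, chr18:20106867-20124071, minus strand) had the opposite direction. The 250 bases before the RefSeq gene start are shown for the first pair, since they moved in the same direction. For LEP the 250 bases before the gene start held 0 motif matches. A 30-base window is shown instead, before the start of the LEP transcript with the shortest first exon. The 250 bases before that start held 3 matches, GC boxes and a C/EBP site, and the window holds the C/EBP site. Capitals mark 3 motifs, each searched on both strands. The GC box is spelled GGGCGG. Overlapping matches of the TATA box, spelled TATAAA, are joined in 1 run. The C/EBP site, a place where C/EBP factors of adipocyte differentiation can bind, is spelled TTGCNNAA. In RARRES2 the capitals are GC boxes from chr18:55906977-55907226, in RBP4 they are TATA box matches from chr14:105044553-105044802, and in LEP they are the C/EBP match from chr18:20123370-20123399, all on the minus strand and all from the Sscrofa11.1 RefSeq assembly.
RARRES2: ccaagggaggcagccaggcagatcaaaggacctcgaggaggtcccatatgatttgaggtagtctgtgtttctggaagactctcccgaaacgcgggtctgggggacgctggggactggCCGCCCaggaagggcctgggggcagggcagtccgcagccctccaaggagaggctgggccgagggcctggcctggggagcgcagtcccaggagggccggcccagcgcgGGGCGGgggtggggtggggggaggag
RBP4: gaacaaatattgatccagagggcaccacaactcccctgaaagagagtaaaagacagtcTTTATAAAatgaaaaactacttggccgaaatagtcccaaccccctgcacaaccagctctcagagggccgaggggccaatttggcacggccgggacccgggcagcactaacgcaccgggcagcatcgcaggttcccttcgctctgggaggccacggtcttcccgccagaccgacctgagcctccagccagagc
LEP: ctgccgggcagTTGCGCAAgttgcgctcgc
The GC box was found in 45.9% of 19531 promoters of 250 bases, the TATA box in 9.76% and the C/EBP site in 8.2%. A match is a description of the letters and not of a bound site. The LEP window was shown for its match, so the 8.2% share does not say how unusual that match is. CFD held a C/EBP site too, 96 to 103 bases before its gene start. The nuclear receptor half-site AGGTCA and the E-box CACGTG were also searched. RARRES2 and RBP4 shared none of these motifs. Over the 250 bases before the gene start, RARRES2 had a GC content of 70% and RBP4 of 57.6%. The TATA box matches of RBP4 lay 185 to 192 bases before the gene start used, chr14:105044552. Another RefSeq transcript of RBP4 starts at chr14:105044191, further inside the gene.

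In the comparison of depots, RARRES2 was higher in GOM than in ULB in both breeds. Its TPM was 1044.88 and 610.18 (wild boar GOM), 357.25 and 515.79 (Bama pig GOM), 182.61 and 180.70 (wild boar ULB) and 103.56 (Bama pig ULB). The lowest GOM library lay above the highest ULB library, and within each depot wild boar lay above Bama pig. Over both breeds the log2 fold change was 2.08 (standard error, SE, 0.31; adjusted p = 0.00504, 4 GOM against 3 ULB libraries), or 4.22-fold. The call held with DESeq2, other filters, limma on TPM and without each library in turn, with an adjusted p of at most 0.0359 and a log2 fold change between 1.86 and 2.35.

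RBP4 was also higher in GOM. Its TPM was 132.41 and 123.37 (wild boar GOM), 145.91 and 139.77 (Bama pig GOM), 67.58 and 52.15 (wild boar ULB) and 28.76 (Bama pig ULB). The 4 GOM libraries lay close together, with a mean of 135.36 ± 9.72 (SD, n = 4), and did not overlap the ULB libraries, with a mean of 49.5 ± 19.55 (SD, n = 3). The log2 fold change was 1.52 (SE 0.26, adjusted p = 0.00991), or 2.88-fold. The call was lost without Bama pig ULB 2 (1.28, adjusted p = 0.111), without wild boar ULB 2 (1.44, adjusted p = 0.0611) and with limma on log2(TPM + 1) (1.56, adjusted p = 0.0514) or log2(TPM + 0.1) (1.59, adjusted p = 0.0778), while the direction stayed.

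LEP ran the other way. Its TPM was 58.34 and 52.08 (wild boar GOM), 73.59 and 143.47 (Bama pig GOM), 147.17 and 254.22 (wild boar ULB) and 156.22 (Bama pig ULB). The depots did not overlap, although Bama pig GOM 2 at 143.47 TPM came close to wild boar ULB 1 at 147.17 TPM. The log2 fold change, GOM over ULB, was -1.36 (SE 0.33, adjusted p = 0.053), or 2.56-fold lower in GOM, just outside the threshold. LEP passed with DESeq2 (-1.41, adjusted p = 0.00126), with DESeq2's size factors in edgeR (-1.41, adjusted p = 0.0468), with no filter on low values (adjusted p = 0.023), with the stricter filter (adjusted p = 0.0449) and without Bama pig GOM 2 (-1.61, adjusted p = 0.0119). It did not pass under the other 9 of 14 alternatives. These were limma on log2(TPM + 1) (adjusted p = 0.181) and log2(TPM + 0.1) (adjusted p = 0.197), replicate number as a block (-1.23, adjusted p = 0.0516), and the fits without any single library other than Bama pig GOM 2 (-1.65 to -1.12).

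Thus 2 of 8 members were called over both breeds, against 3.5% of the 17934 genes tested. Both were higher in GOM, as were 2.28% of all genes, and no member was called lower in GOM, as were 1.22% of all genes. RARRES2, RBP4 and LEP were the 3 of 8 members whose TPM did not overlap between depots, which held for 10.9% of all genes. The 8 genes were chosen with earlier results of these data known, so these shares are a description and no test of the set.

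**Figure D1:**
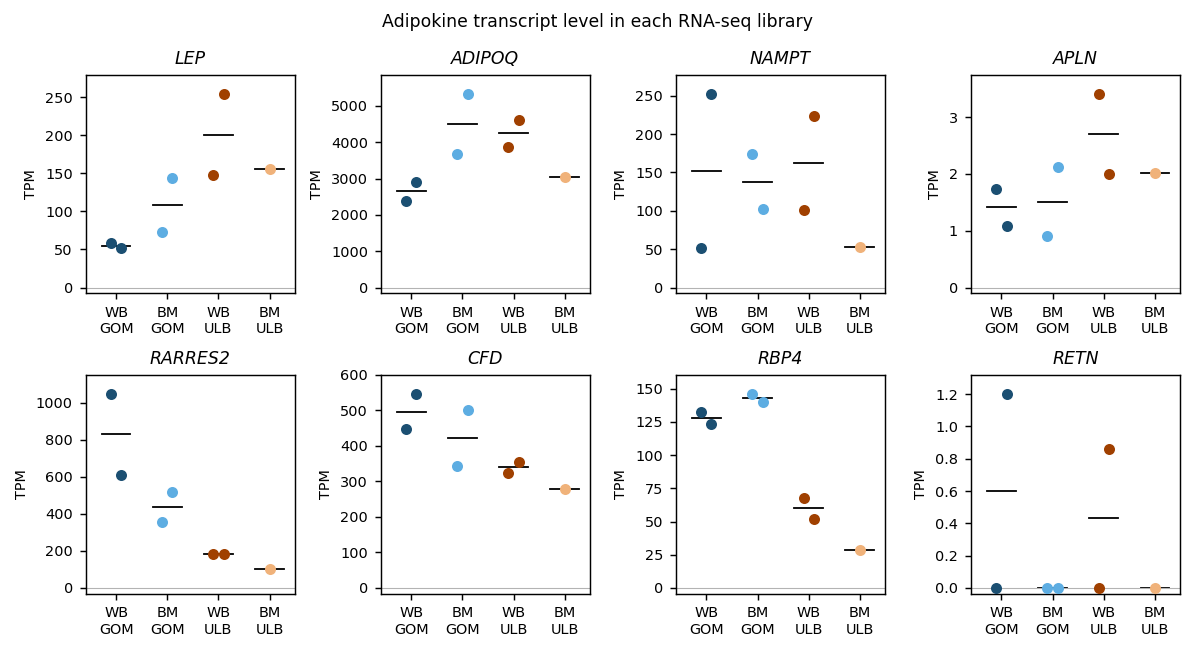
TPM (vertical axis, from 0, 1 panel per gene) in each RNA-seq library, with wild boar (WB) and Bama pig (BM) GOM and ULB on the horizontal axis; points are libraries and bars are group means. RARRES2 and RBP4 are higher in all 4 GOM libraries than in the 3 ULB libraries, LEP is lower, and RETN is at 0 in 5 libraries.

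The other 5 members did not pass the depot test. ADIPOQ (ENSSSCG00000039103, chr13:124633906-124646237, plus strand), the most abundant of the 8, stood at TPM values of 2387.33 and 2911.36 (wild boar GOM), 3673.20 and 5331.76 (Bama pig GOM), 3881.57 and 4608.78 (wild boar ULB) and 3040.17 (Bama pig ULB). It ranked between place 13 and place 43 of all genes in every library. Its depots overlapped, with a log2 fold change of -0.21 (SE 0.36, adjusted p = 0.788).

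CFD (ENSSSCG00000013418, chr2:77509792-77511988, minus strand) stood at TPM values of 446.45 and 545.81 (wild boar GOM), 342.30 and 502.25 (Bama pig GOM), 323.63 and 355.71 (wild boar ULB) and 278.45 (Bama pig ULB). Only Bama pig GOM 1 overlapped the ULB range, and the log2 fold change of 0.53 (SE 0.29) had an adjusted p of 0.353. CFD varied little across libraries, with its highest value 1.96 times its lowest.

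NAMPT (ENSSSCG00000015435, chr9:106119896-106162126, minus strand) stood at TPM values of 51.12 and 252.23 (wild boar GOM), 173.31 and 102.95 (Bama pig GOM), 101.54 and 223.52 (wild boar ULB) and 52.79 (Bama pig ULB). The replicates of wild boar GOM differed 4.93-fold, as much as the lowest and highest of all 7 libraries. With this spread the log2 fold change between depots was 0.5 (SE 0.53, adjusted p = 0.643).

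APLN (ENSSSCG00000048443, chrX:106236746-106246563, minus strand) was a low transcript, with a TPM of 1.74 and 1.09 (wild boar GOM), 0.91 and 2.12 (Bama pig GOM), 3.41 and 2.00 (wild boar ULB) and 2.02 (Bama pig ULB). These values rest on 33.8 to 126.6 estimated counts, and the log2 fold change was -0.79 (SE 0.46, adjusted p = 0.374). RETN (ENSSSCG00000013575, chr2:71484164-71485577, minus strand) had 7.1 estimated counts in wild boar GOM 2, 4.0 in wild boar ULB 2 and 0 in the other 5 libraries. A count of 0 allows up to 3 counts, which is 0.161 to 0.277 CPM (counts scaled to the library total) in the libraries at 0, so no fold is given, and a difference in RETN was not detectable at this depth.

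The order of the members differed by depot. By mean TPM over the 4 GOM libraries it was ADIPOQ (3575.91), RARRES2 (632.02), CFD (459.2), NAMPT (144.9), RBP4 (135.36), LEP (81.87), APLN (1.46) and RETN (0.3). Over the 3 ULB libraries it was ADIPOQ (3843.51), CFD (319.26), LEP (185.87), RARRES2 (155.62), NAMPT (125.95), RBP4 (49.5), APLN (2.48) and RETN (0.29). RARRES2 lay above CFD within each GOM library and below it within each ULB library, although their ranges over GOM overlapped. The ranges of NAMPT, RBP4 and LEP overlapped in GOM, as did those of LEP, RARRES2 and NAMPT in ULB. ADIPOQ lay above and APLN below all of these in every library.

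**Figure D2:**
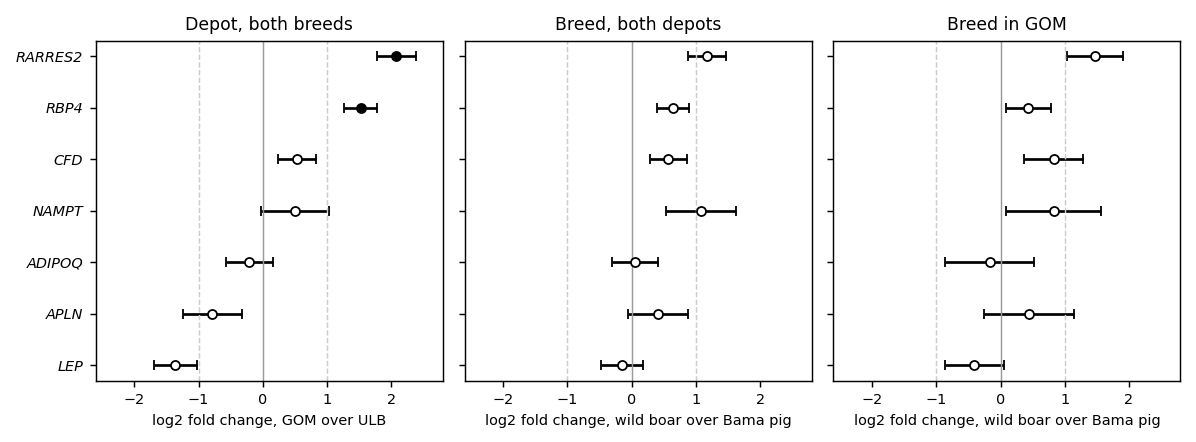
Log2 fold change of 7 members (horizontal axis) for depot over both breeds, breed over both depots and breed in GOM, with bars of 1 standard error and dashed lines at 1 and -1; filled points were called. Only RARRES2 (2.08) and RBP4 (1.52) are filled, both in the depot panel, and LEP lies at -1.36.

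The balance between members differed by depot. ADIPOQ stood at 37.2 to 55.9 times LEP in GOM and at 18.1 to 26.4 times LEP in ULB, by TPM. The RARRES2 to LEP ratio was 3.60 to 17.91 in GOM and 0.66 to 1.24 in ULB, and that of RBP4 to LEP was 0.97 to 2.37 in GOM and 0.18 to 0.46 in ULB. These are ratios within a library, and they restate the depot values above without a test.

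Set against the summed TPM of the 9 adipocyte genes, LEP, CFD, RBP4 and RARRES2, 4 of 8, did not overlap between depots, as for 16.7% of genes. LEP was 0.443% to 0.971% of that sum in GOM and 1.134% to 1.67% in ULB. CFD, whose TPM overlapped, was 3.012% to 5.14% in GOM and 2.23% to 2.494% in ULB. RARRES2 was 3.143% to 12.029% in GOM and 0.829% to 1.407% in ULB, and RBP4 was 0.946% to 1.524% in GOM and 0.23% to 0.521% in ULB. The same 4 members were apart with PLIN1, the lipid droplet protein, as the sole denominator. Of the adipocyte genes themselves, 0 of 9 were called between depots by edgeR or DESeq2, and 0 had an unadjusted p below 0.05.

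**Figure D3:**
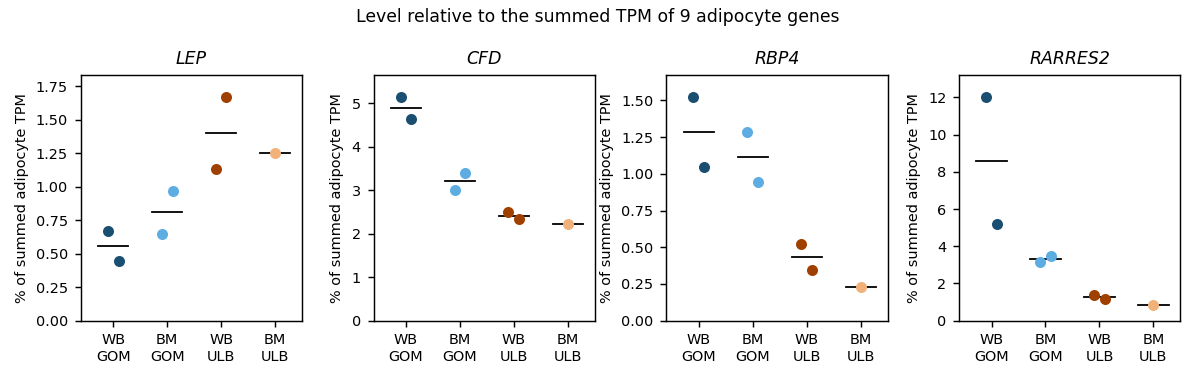
Level of 4 members as a percentage of the summed TPM of 9 adipocyte genes (vertical axis, from 0) in each library, by breed and depot; points are libraries and bars are group means. LEP is lower in GOM (0.443% to 0.971%) than in ULB (1.134% to 1.67%), and CFD, RBP4 and RARRES2 are higher in GOM.

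Other cell types differed between the depots too. For the counts of called markers below, the shares over all genes tested were 2.28% called higher in GOM and 1.22% called lower. Markers of mesothelial cells, which line the omentum, summed to 120.3 to 273.9 TPM in GOM and 1.4 to 16.0 TPM in ULB. Of these markers 4 of 6 tested were called higher in GOM. WT1, BNC1 and UPK1B were at 0 to 0.87 TPM in ULB. Macrophage markers summed to 899.1 to 2237.0 TPM in GOM and 550.6 to 765.0 TPM in ULB, and 2 of 9 were called higher in GOM: MARCO (log2 fold change 5.18, adjusted p = 0.0135) and C1QC (1.56, adjusted p = 0.0368). Neutrophil and monocyte markers gave 1 of 4 called (S100A8, 3.42, adjusted p = 0.0102), and lymphocyte markers 1 of 6 (CD2, 1.7, adjusted p = 0.027). The fold change was toward GOM for 3 of the 4 neutrophil and monocyte markers and 4 of the 6 lymphocyte markers. Fibroblast and progenitor markers summed to 3092.6 to 4185.3 TPM in GOM and 4721.3 to 7998.5 TPM in ULB, with 1 of 6 called, PI16, higher in GOM (2.1, adjusted p = 0.0299). Of endothelial markers 0 of 6 were called by edgeR or DESeq2, with 1 at an unadjusted p below 0.05. Of skeletal muscle markers 0 of 4 were called by edgeR, with 3 at an unadjusted p below 0.05 and 2 called by DESeq2. Among all 17934 genes, 3392 had an unadjusted p below 0.05 with edgeR and DESeq2 called 1289. The part of these cell types in the RARRES2 and RBP4 differences was not tested, and in whole tissue fewer cells of a type and less RNA per cell cannot be told apart. Without the muscle-marked library wild boar ULB 1, RARRES2 had a log2 fold change of 2.03 (adjusted p = 0.0359) and RBP4 of 1.73 (adjusted p = 0.0233).

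In wild boar alone, which has 2 libraries of each depot, RARRES2 was called with a log2 fold change of 2.4 (SE 0.38, adjusted p = 0.0179, 2 against 2 libraries), against 1.47% of genes called. It lost the call without wild boar GOM 1 (2.11, adjusted p = 0.119), wild boar ULB 1 (2.5, adjusted p = 0.197) and wild boar ULB 2 (2.31, adjusted p = 0.216), where 1 library stands for an arm and is assumed to vary like the others, and with limma on log2(TPM + 1) (2.13, adjusted p = 0.0827) or log2(TPM + 0.1) (2.14, adjusted p = 0.121). RBP4 (1.33, adjusted p = 0.0937) and LEP (-1.6, adjusted p = 0.135) kept the direction of both breeds together without passing in edgeR. Both passed with DESeq2, RBP4 at 1.28 (adjusted p = 0.00868) and LEP at -1.64 (adjusted p = 0.00781). DESeq2 thus called 3 of 8 members, beside 963 of 17934 genes. LEP also passed in edgeR without Bama pig GOM 1 (adjusted p = 0.0448) or GOM 2 (adjusted p = 0.048), which enter this fit through the shared spread. Whether the depot difference itself differed between breeds was tested as an interaction, in which 0 of 8 members and 0% of 17934 genes were called by edgeR, although 834 genes had an unadjusted p below 0.05 and DESeq2 called 52. The interaction was 0.79 (SE 0.56) for RARRES2, -0.51 (SE 0.5) for RBP4 and -0.62 (SE 0.68) for LEP, each with an adjusted p of 0.981, and Bama pig ULB had 1 library.

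In the comparison of breeds over both depots, 0 of 8 members were called by edgeR, against 0.446% of genes. With edgeR 2 members had an unadjusted p below 0.05, as did 3717 of 17934 genes. DESeq2 called 1 member, RARRES2, and 1058 of the 17934 genes. RARRES2 had a log2 fold change, wild boar over Bama pig, of 1.17 (SE 0.3, adjusted p = 0.103). It passed with DESeq2 (1.16, adjusted p = 0.0103) and without Bama pig GOM 2 (1.24, adjusted p = 0.0473). NAMPT (1.08, SE 0.54, adjusted p = 0.276), RBP4 (0.64, SE 0.25, adjusted p = 0.196) and CFD (0.57, SE 0.29, adjusted p = 0.295) did not pass, and ADIPOQ, with 0.05 (SE 0.36), changed sign with limma on TPM. For 0 of 8 members did the breeds' TPM not overlap, against 12.8% of genes.

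In GOM alone, 0 of 7 members tested were called by edgeR or DESeq2, against 0.0241% of genes with edgeR and 167 of 16615 with DESeq2. RARRES2 alone had an unadjusted p below 0.05 with edgeR, as did 1329 of the 16615 genes. The log2 fold change of RARRES2 was 1.47 (SE 0.44, adjusted p = 0.586, 2 against 2 libraries). RETN was below the filter of TPM above 0.1 in both replicates of a breed. The breeds' TPM did not overlap for LEP, ADIPOQ, RBP4 and RARRES2, 4 of 7, but this also held for 53.5% of genes. The scale matters here: relative to the test on counts, log2(TPM + 1) moved the median of all genes from -0.01 to -0.41, so that RBP4 was 0.43 (adjusted p = 0.725) on counts and -0.16 (adjusted p = 0.751) on TPM. On counts ADIPOQ was -0.17 (SE 0.69) and LEP -0.41 (SE 0.46), both within their error.

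Since RBP4 is also made by liver, it was set beside liver transcripts. ALB (albumin, the main liver plasma protein) stood at TPM values of 6.60 and 4.19 (wild boar GOM), 292.99 and 873.47 (Bama pig GOM), 1.95 and 4.42 (wild boar ULB) and 77.67 (Bama pig ULB). ALB was thus higher in every Bama pig library than in every wild boar library, with a log2 fold change, wild boar over Bama pig, of -5.66 (SE 0.53, adjusted p = 0.00256), and its call was lost without Bama pig ULB 2 (-6.23, adjusted p = 0.0554). Of 13 liver genes tested, 8 were called, all lower in wild boar, against 0.446% of all genes called. The breeds did not overlap for 11 of the 13, against 12.8% of all genes. Among those called were APOC3 (-5.58, adjusted p = 0.0227), AMBP (-5.37, adjusted p = 0.0308) and FGG (-4.87, adjusted p = 0.0214). This fit counts libraries of the same pigs as independent. In GOM alone, with 2 libraries per breed, edgeR did not call ALB (-6.22, SE 0.72, adjusted p = 0.103). There edgeR called 1 of 13 liver genes, APOB (-5.34, adjusted p = 0.0455), while DESeq2 called 9, ALB among them. Over all genes tested in GOM, edgeR called 0.0241% and DESeq2 167 of 16615.

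RBP4 was not called between breeds. The ALB to RBP4 ratio was 0.029 to 0.085 in wild boar and 2.008 to 6.249 in Bama pig. RBP4 itself was 123.37 to 132.41 TPM in wild boar GOM and 139.77 to 145.91 TPM in Bama pig GOM. In ULB it was 52.15 and 67.58 TPM in wild boar and 28.76 TPM in Bama pig. On counts with edgeR, RBP4 leaned to wild boar, at 0.43 in GOM (adjusted p = 0.725) and 0.64 over both depots (adjusted p = 0.196). Between depots, ALB had a log2 fold change of 1.62 (SE 0.51, adjusted p = 0.121) with edgeR, and it was called higher in GOM with DESeq2 (1.55, adjusted p = 0.0167). TTR (transthyretin, which binds RBP4 in plasma) was at 0.22 to 2.83 TPM in wild boar and at 9.11 to 45.32 TPM in Bama pig, so the breeds did not overlap. In wild boar ALB stayed between 1.95 and 6.60 TPM. There the log2 fold change of RBP4 between depots was 1.33 with edgeR (adjusted p = 0.0937, not called), beside 1.52 over both breeds. That of ALB in wild boar was 1.02 (SE 0.58, adjusted p = 0.472), and 1.06 (adjusted p = 0.0368) with replicate number as a block. The block fit left 1 residual degree of freedom there. The part of liver transcripts in the RBP4 depot difference was not tested.

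**Figure D4:**
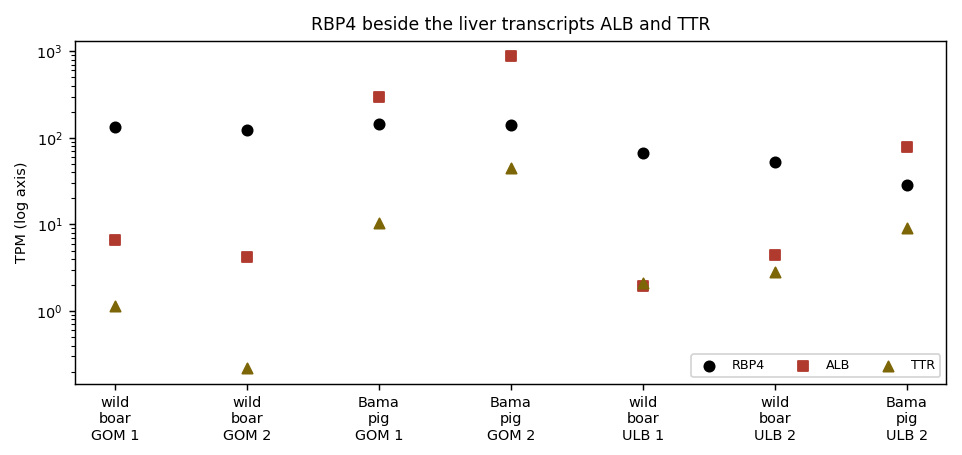
TPM (log axis) of RBP4 and of the liver transcripts ALB and TTR in each of the 7 RNA-seq libraries on the horizontal axis. RBP4 stays between 28.76 and 145.91 TPM, while ALB runs from 1.95 TPM in wild boar ULB 1 to 873.47 TPM in Bama pig GOM 2.

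Receptors and partners of the 8 members were drawn from a list of 33 genes, of which 29 were tested. Between depots 3 were called higher in GOM and 1 lower, against 3.5% of all genes, and the list median was 0.12 on the log2 scale beside 0.04 over all genes. C3, the complement protein, stood at TPM values of 417.13 to 874.16 in GOM and 12.17 to 41.72 in ULB, with a log2 fold change of 4.74 (SE 0.5, adjusted p = 0.000826). CFB, the substrate that CFD cleaves, was at 17.46 to 104.24 TPM in GOM and 2.45 to 8.61 TPM in ULB (3.58, adjusted p = 0.0128). CFD itself stood at 0.53 in the same comparison.

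CMKLR1, the chemerin receptor, was higher in GOM like its ligand RARRES2, with 10.53 to 18.47 TPM in GOM and 4.67 to 8.75 TPM in ULB (1.24, SE 0.26, adjusted p = 0.0267). CDH13, the T-cadherin that binds adiponectin, was lower in GOM, with 24.46 to 46.35 TPM against 107.13 to 132.56 TPM (-1.75, SE 0.32, adjusted p = 0.0144), while ADIPOQ and its receptors ADIPOR1 (38.49 to 60.89 TPM) and ADIPOR2 (248.79 to 416.42 TPM over all libraries) had no call. LEPR, the leptin receptor, was at 1.69 and 24.22 TPM in wild boar GOM, 12.09 and 5.31 TPM in Bama pig GOM, 48.82 and 85.46 TPM in wild boar ULB and 1.81 TPM in Bama pig ULB, without a call in any comparison. STRA6, the RBP4 receptor, was at or below 0.24 TPM in every library, and APLNR, the apelin receptor, was between 0.88 and 11.66 TPM. Between breeds 0 of 29 were called by edgeR over both depots, with 9 at an unadjusted p below 0.05 and 2 called by DESeq2. Among all 17934 genes, 3717 had such a p with edgeR and DESeq2 called 1058.

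Of 35 other secreted adipose factors, 27 were tested and 2 were called between depots, against 3.5% of all genes. LCN2 (lipocalin 2, an iron-siderophore binder) was higher in GOM (2.4, SE 0.52, adjusted p = 0.0336), with 56.89 to 334.86 TPM against 15.22 to 39.35 TPM. ANGPTL4, an inhibitor of lipoprotein lipase, was lower in GOM like LEP (-1.78, SE 0.39, adjusted p = 0.0325), with 12.54 to 55.85 TPM against 39.14 to 98.75 TPM. The list median was -0.14 beside 0.04 over all genes. In wild boar C1QTNF3, a relative of adiponectin, was called lower in GOM (-2.86, adjusted p = 0.00955), with 2.74 and 3.28 TPM in GOM and 25.57 and 26.76 TPM in ULB. In Bama pig it was at 2.73 and 2.05 TPM in GOM and at 2.09 TPM in ULB.

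The genes whose profile was most like each member were ranked by Pearson's r of log2(TPM + 1) over the 7 libraries, among 10136 genes with a symbol and a TPM of at least 1 in every library. The points share library, depth and depot, and the values are a description without a test. For LEP the closest were FBXO4 (r = 0.995), C8orf88 (0.993) and ARL6IP5 (0.976). For RARRES2 they were H2AC17 (0.992) and CDC34 (0.987). RBP4 was closest to WDR91 (0.984), ST6GALNAC4 (0.979) and GPC6 (0.976), a cell-surface glypican. NAMPT was closest to F3, the tissue factor that starts coagulation (0.993), then NFKBIB (0.97) and ORC6 (0.968). F3 ran from 62.2 to 618.07 TPM. ADIPOQ was closest to GTPBP10 (0.99) and ATP6V0A2 (0.986), and CFD to NFKBIL1 (0.987), ECSCR (0.974) and AP1S1 (0.966). APLN reached 0.963 with ADSS1, then TTPAL (0.957) and CLDN7 (0.94), and RETN, which rests on 2 libraries above 0, reached 0.994 with ENO1, 0.969 with PFKFB3 and 0.968 with ARMC12.

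The loci were then read in the Hi-C data. Chromatin falls into compartment A, which is open and gene-rich, and compartment B, which is closed, and a positive PC1 score of a 20-kb bin marks A and a negative score marks B. The bin of the start site was scored for the 7 members on autosomes, since APLN lies on chromosome X, for which no PC1 was scored here. LEP, ADIPOQ, CFD, NAMPT, RARRES2 and RETN were in A in all 7 libraries, a state that 40.8% of the 113298 bins share. That share counts all autosomal bins, whether or not they hold a gene. Since A is gene-rich, the share among bins with a gene start can differ, and it was not computed.

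RBP4 was in B in all 7 libraries, as were 41.6% of all bins, again with or without a gene. Its PC1 was -17.62 and -7.25 (wild boar GOM), -8.63 and -8.46 (Bama pig GOM), -11.80 and -8.79 (wild boar ULB) and -13.47 (Bama pig ULB). RBP4 was thus the sole member in B, and its transcript was still at 28.76 to 145.91 TPM. RETN, the lowest transcript, was in A, with a PC1 of 27.33 to 37.38. PC1 is scored chromosome by chromosome, so members on different chromosomes were set side by side by the percentile among their chromosome's bins. CFD lay between the 92.8 and 99.3 percentile and RARRES2 between the 89.6 and 97.3, with RARRES2 above CFD in both wild boar GOM libraries.

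Between depots, 0 of 7 members were called on PC1 with limma (adjusted p below 0.05), against 2.3% of bins, and 0 had an unadjusted p below 0.05. RARRES2 had a PC1 of 28.03 and 25.41 (wild boar GOM), 23.02 and 24.71 (Bama pig GOM), 20.75 and 20.72 (wild boar ULB) and 23.40 (Bama pig ULB). Its depots overlapped, with a PC1 difference of 3.78 (SE 2.56, adjusted p = 0.427) while its transcript was called. With PC1 averaged within 40 kb the difference was 0.73 (adjusted p = 0.84). The difference was 0.69 (SE 3.25) for RBP4 and 0.82 (SE 2.94) for LEP, both well within the error. NAMPT (5.57, SE 2.48, adjusted p = 0.237) and RETN (5.56, SE 2.61, adjusted p = 0.258) were the 2 members whose PC1 did not overlap between depots, both higher in GOM, which held for 18.8% of bins.

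Between breeds, 0 of 7 members were called on PC1 with limma, against 0.00971% of bins, and 2 had an unadjusted p below 0.05. ADIPOQ had a PC1 of 26.50 and 28.54 (wild boar GOM), 15.76 and 15.15 (Bama pig GOM), 21.14 and 24.20 (wild boar ULB) and 20.00 (Bama pig ULB). Its difference, wild boar over Bama pig, was 8.31 (SE 2.86, adjusted p = 0.318), while that of its transcript was 0.05 on the log2 scale. With PC1 averaged within 40 kb the difference was 1.39 (adjusted p = 0.782), and the breeds overlapped, at 25.16 to 33.14 in wild boar and 25.18 to 31.35 in Bama pig. CFD had a PC1 of 63.61 and 65.49 (wild boar GOM), 79.31 and 73.24 (Bama pig GOM), 67.06 and 67.39 (wild boar ULB) and 78.78 (Bama pig ULB), a difference of -11.66 (SE 2.6, adjusted p = 0.229). For the start-site bins of both genes the breeds did not overlap, as for 8.89% of bins.

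**Figure D5:**
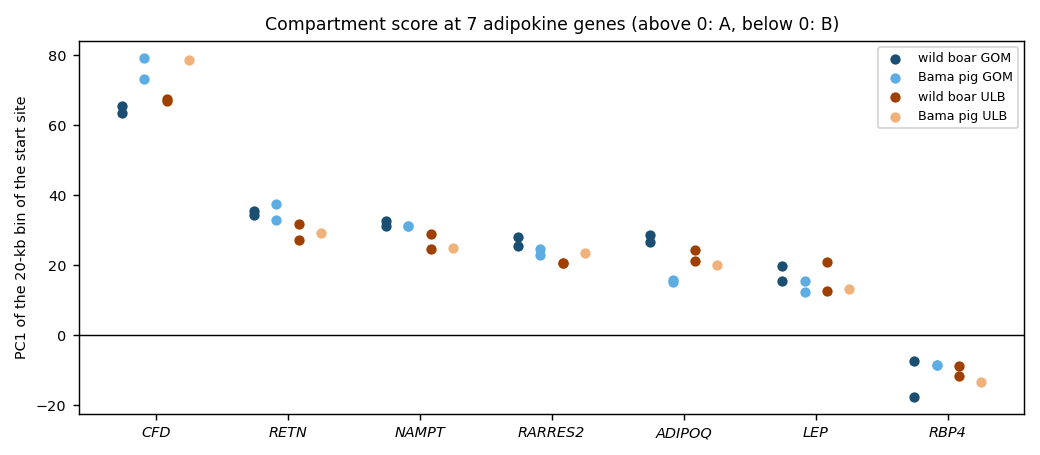
PC1 of the 20-kb bin of the start site (vertical axis; above 0 compartment A, below 0 compartment B) for 7 members in each Hi-C library, coloured by breed and depot. RBP4 is below 0 in all 7 libraries (-17.62 to -7.25) and the other 6 are above 0; scores of genes on different chromosomes share no scale.

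Topologically associated domains (TADs) are blocks of chromatin that contact themselves more than their surroundings, and 1 list of them was called per breed and depot on merged replicates. With boundaries matched within 40 kb, the TAD that holds the start site was the same in all 4 lists for LEP (580 to 600 kb long), ADIPOQ (320 to 340 kb), CFD (580 kb) and RARRES2 (502 to 522 kb). RBP4 lay in a TAD of 360 to 380 kb in both ULB lists and in no TAD in either GOM list, and the nearest GOM boundary was 64 kb away. For NAMPT the TAD was 960 kb in 3 lists and 280 kb in Bama pig GOM, with the same start in all 4. RETN had a TAD of 620 kb in both GOM lists, 540 kb in wild boar ULB and 440 kb in Bama pig ULB. These lists have no replicates, so no test was made.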

How the data were processed

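RNA-seq and Hi-C values of GOM and ULB from wild boar and Bama pig were used, 7 libraries each; Bama pig ULB replicate 1 was not analysed here. Groups came from the sample labels. The authors deposited estimated counts per gene from kallisto (0.43.0 in the submitters' processing notes) on Sscrofa11.1 with Ensembl release 102, without normalization between libraries, and deposited TPM, scaled by kallisto over all transcripts, so that the TPM of the listed genes sums to between 774260 and 956616. The authors also deposited a score per 20-kb bin. It is named an A-B index but has mean 0 on each chromosome and was read as PC1, from normalized contact matrices with its sign set by gene density. TAD coordinates (other) were deposited as 1 list per group, called on merged replicates.

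Estimated counts were rounded and tested with edgeR 4.0.16 (R 4.3.3; TMM, quasi-likelihood F test, two-sided, Benjamini-Hochberg), among genes with TPM above 0.1 in at least 2 libraries, or, for breed in GOM, in both replicates of a breed. Standard errors are the absolute log2 fold change over the root of F. The depot and breed fits were additive over 7 libraries; the depot in wild boar and the interaction used group means. PC1 was tested with limma 3.58.1 over 113298 autosomal bins. Code was tested on simulated counts. Alternatives were DESeq2 1.42.0, its size factors in edgeR, no filter, TPM above 1, limma on log2(TPM + 1) and log2(TPM + 0.1), a replicate block, and each library left out. Other values and plots used Python 3.11.15, numpy 2.4.6, pandas 2.3.3 and matplotlib 3.10.9.

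The 8 genes and the lists were chosen with earlier results of these data known. Named genes were the 8, ALB and liver genes, up to 4 called genes per list and comparison (or its first 2, where none was called), and the 3 most alike per member, of which some are not reported here. Others were named for what they do after their values were seen, such as LEPR, STRA6, APLNR, ADIPOR1 and ADIPOR2. Positions came from RefSeq by symbol (13532 of 14821 symbols placed); the 18 autosome lengths match. Depth was 10833153 to 18627076 counts; floors of 3 counts cover counting error only, and the depth of PC1 and TADs is unknown.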

Additional observations from a re-analysis of the deposited data

How the results depend on the processing

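Over both breeds, RARRES2 stayed called between depots under all 14 alternatives (log2 fold change 1.86 to 2.35), RBP4 under 10 of 14 (1.28 to 1.73), and LEP kept its direction under all 14 (-1.65 to -1.12) and passed under 5. In wild boar RARRES2 kept its call under 9 of 14. Counts of called genes moved more. Breed in GOM, 4 genes, gave 167 with DESeq2, 26 without a filter, 0 and 1 with limma on log2(TPM + 1) and log2(TPM + 0.1), 15 with the replicate block and 0 to 123 without each library. Depot over both breeds, 628, gave 1289, 999 and 273 (DESeq2, no filter, limma with 1), 881 with the block and 237 to 672 without each library. Breed over both depots, 80 (23 higher, 57 lower in wild boar), gave 1058 with DESeq2 (440 higher, 618 lower), 503 without a filter, 50 with TPM above 1, 9 and 133 with limma (1 higher and 8 lower with 1), and 1 to 1779 without each library, the extremes without Bama pig ULB 2 and Bama pig GOM 2. Depot in wild boar, 264 (187 higher in GOM), gave 963 (557 higher), 528, 29 (15 higher) and 86 for DESeq2, no filter and both limma settings, 1710 with the block and 69 to 398 without each library. The interaction, 0, gave 52 with DESeq2, 7 without a filter, 674 with the block and 0 to 1 without each library; it could not be fitted without Bama pig ULB 2. PC1 bins between depots, 2609, became 9199 averaged within 40 kb, 5291 without chromosome 10, 0 with the block and 0 to 700 without each library. PC1 bins between breeds, 11, became 22 centred on the chromosome median, 22 within 40 kb, 39 without chromosome 10 and 6 to 1523 without each library. The cause of these moves was not tested.

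Signs turned only for uncalled values. With limma on log2(TPM + 1) and log2(TPM + 0.1), breed in GOM gave RBP4 -0.16 in both, NAMPT -0.23 in both and APLN -0.03 and -0.01; breed over both depots gave ADIPOQ -0.26 in both and -0.01 with TPM above 1; depot in wild boar gave NAMPT -0.4 and -0.41; the interaction gave CFD -0.03 in both and APLN -0.3 and -0.37. On PC1, CFD gave 0.08 and RBP4 -0.78 between depots within 40 kb; between breeds NAMPT gave -0.45 and RETN -0.43 with centring, and RARRES2 -1.15 within 40 kb. Leaving out libraries spanned, in breed in GOM, -0.85 to 0.25 for LEP, -0.49 to 0.22 for ADIPOQ, -0.98 to 1.59 for NAMPT and -0.07 to 1.27 for APLN; over both depots -0.43 to 0.23 for LEP and -0.19 to 0.28 for ADIPOQ; between depots -0.31 to 0.96 for NAMPT, and -1.51 to 1.03 in wild boar; in the interaction -1.06 to 0.02 for LEP, -2.41 to 0.13 for NAMPT and -0.37 to 0.95 for APLN; on PC1 between depots -1.27 to 2.86 for LEP, -0.61 to 4.85 for ADIPOQ and -2.14 to 3.98 for RBP4, and between breeds -3.89 to 2.23 for RBP4, -0.56 to 2.86 for RARRES2 and -1.07 to 1.22 for RETN.

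The depots share animals, but whether a replicate number marks an animal is not given, so the numbers pair libraries by label only. In the depot and interaction fits the block was breed with replicate number. For the breed fits it was replicate number alone, which joins wild boar and Bama pig libraries and so different animals. Same-numbered wild boar libraries deviated together between depots (r = 0.195 across genes) and those of GOM between breeds by 0.175. The block left 1 residual degree of freedom in wild boar, in the interaction and in breed in GOM. Calls over all genes rose with it from 264 to 1710 in wild boar and from 0 to 674 in the interaction. The low adjusted p-values of members and ALB in those fits share this limit. With the block, RARRES2 over both breeds was 2.22 (adjusted p = 0.000515) and RBP4 1.52 (adjusted p = 0.00805), LEP stayed uncalled (-1.23, adjusted p = 0.0516) and passed in wild boar (-1.57, adjusted p = 0.000257), as did RBP4 (1.35, adjusted p = 0.0004); ALB was called between depots (1.83, adjusted p = 0.0327), in wild boar (1.06, adjusted p = 0.0368), between breeds in GOM (-5.99, adjusted p = 0.0254) and in the interaction (-2.01, adjusted p = 0.0215); NAMPT in wild boar was -0.16, APLN in the interaction -0.32 and RETN on PC1 between breeds -0.04.

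Compartment calls, TAD matches within 100 kb and ratios to PLIN1 gave the same counts of members as the main settings. With 1 Bama pig ULB library, the depot difference in Bama pig has no replicate on 1 side. RETN and APLN are limited by few counts.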
